A study of Mus musculus with 6 samples.

Results

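Leukocytes leave the blood in steps, and the genes described here encode the molecules of the vessel wall that hold them, with the main leukocyte ligand of the selectins. The set comprised 7 genes, the selectins Sele and Selp, the selectin ligand Selplg, and the integrin ligands Icam1, Icam2, Vcam1 and Madcam1. They were chosen by gene symbol as the vessel's selectins and adhesion ligands, and all 7 were found among the 18477 genes of the expression table and among the 14579 that passed the filter on low counts. Colon tissue was taken from male C57BL/6 mice, 6 to 8 weeks old at purchase, that received a daily gavage for 2 weeks and 2% dextran sulfate sodium (DSS), which injures the colon epithelium, in the drinking water during the second week. The DSS group (n = 3 mice) was gavaged with phosphate-buffered saline and the DSS+BV group (n = 3 mice) with the gut commensal *Bacteroides vulgatus* (*B. vulgatus*), a strain of the American Type Culture Collection. Each mouse gave 1 RNA library, and all 6 mice had received DSS. The comparison asked which of these genes differed in colitis when the bacterium was given.

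Selectins catch the sugars of passing leukocytes and make them roll. E-selectin (Sele) is made by endothelium after cytokine exposure, while P-selectin (Selp) is stored in granules of endothelial cells and platelets. Both bind P-selectin glycoprotein ligand-1 (Selplg), which leukocytes carry. Rolling cells then stop when their integrins bind the immunoglobulin-type ligands, ICAM-1 and ICAM-2 for the beta2 integrins, VCAM-1 for integrin alpha4 beta1 and MAdCAM-1, the addressin of gut venules, for integrin alpha4 beta7.

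In the annotation of the submitters' genome build, GRCm38, Sele (chr1:164048234-164057677) and Selp (chr1:164115264-164150026) lie on the plus strand, and from the start of Sele to the end of Selp is 101.8 kb. The other genes lie apart, Vcam1 at chr3:116109949-116129688, Selplg at chr5:113818536-113832644, Icam1 at chr9:21015985-21028817, Madcam1 at chr10:79664559-79668537 and Icam2 at chr11:106377656-106388075. All are annotated as protein-coding, and the counts cover their exons.

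NF-kB carries the cytokine signal to several of these genes, so their upstream sequences are shown. RefSeq promoter sequences of GRCm38.p6 were matched for 4 of the 7 genes, Sele, Selp, Icam1 and Madcam1. The 250 bases before the annotated start were searched on both strands for the 10-base NF-kB consensus, for TGACNTCA and for TATAAA (the TATA box). TGACNTCA is the 8-base form of the AP-1/CREB element, and the shorter AP-1 site was not searched for. Capitals mark the exact matches. Selp is printed because the results turn on it, Sele as the other selectin of the set, and Madcam1 because it held NF-kB matches.
Selp (chr1:164115014-164115263, plus strand): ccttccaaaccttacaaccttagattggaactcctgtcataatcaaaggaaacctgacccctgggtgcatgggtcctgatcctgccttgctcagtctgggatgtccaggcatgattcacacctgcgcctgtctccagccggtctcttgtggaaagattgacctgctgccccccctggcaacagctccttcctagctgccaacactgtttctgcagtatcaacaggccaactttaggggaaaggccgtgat
Sele (chr1:164047984-164048233, plus strand): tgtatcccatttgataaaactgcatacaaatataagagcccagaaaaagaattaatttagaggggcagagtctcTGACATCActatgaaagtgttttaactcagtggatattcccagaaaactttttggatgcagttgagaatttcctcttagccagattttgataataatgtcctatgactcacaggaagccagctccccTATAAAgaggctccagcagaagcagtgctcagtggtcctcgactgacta
Madcam1 (chr10:79664309-79664558, plus strand): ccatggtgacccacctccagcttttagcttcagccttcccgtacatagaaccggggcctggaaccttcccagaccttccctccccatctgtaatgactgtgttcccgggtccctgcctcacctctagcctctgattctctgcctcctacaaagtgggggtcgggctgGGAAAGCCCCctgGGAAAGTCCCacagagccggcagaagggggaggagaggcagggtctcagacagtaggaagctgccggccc

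Madcam1 held 2 NF-kB matches on the minus strand, between 83 and 61 bases before the start and separated by 3 bases. The consensus was found in 7.3% of the 32851 promoters of the same length. Sele held 1 TGACNTCA match, 176 to 169 bases before the start, and 1 TATAAA match, 49 to 44 bases before it, which were found in 7.5% and 12.4% of promoters. The windows of Selp and Icam1 held no exact match to any of the 3 motifs. Near matches were not counted in any window, so NF-kB-like sites that depart from the consensus stay unmarked. A match is a description of the sequence and not a measurement of binding.

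Library totals lay between 15293276 and 17254343 expected counts. Levels are given in CPM, the count scaled to the library total after TMM normalisation. Before the genes themselves are described, 2 features of the libraries bear on them. The summed level of 10 B cell markers was 186, 15.7 and 305 CPM across DSS mice 1 to 3, against 282, 8.09 and 11.9 CPM across DSS+BV mice 1 to 3. Thus DSS 2 and DSS+BV 1 each stood with libraries of the other group, and 7 pan-leukocyte markers had nearly the same order, with 581, 292 and 859 CPM across DSS mice 1 to 3, against 693, 187 and 174 CPM across DSS+BV mice 1 to 3. Results are therefore also given without DSS 2 and DSS+BV 1. Colon epithelium markers were detected in every library, and their sum moved opposite to the 7 genes. It was 13531 to 23426 CPM in DSS mice and 23552 to 42451 CPM in DSS+BV mice. The groups did not overlap, but DSS 2 and DSS+BV 1 nearly met. Of the 11 markers, 4 were higher in DSS+BV without overlap, against 6.37% of all tested genes. The part of the epithelium in the results was not tested. In whole tissue, fewer cells of a type and less RNA per cell cannot be told apart.

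All 7 genes had a lower mean in the DSS+BV group, and P-selectin differed most. Its mean was 39.0 ± 10.8 CPM without the bacterium and 8.08 ± 3.18 CPM with it (SD, n = 3 mice each), which makes the DSS mean of Selp 4.82 times that of DSS+BV. The other 6 genes had log2 fold changes between -1.09 for Madcam1 and -0.80 for Icam2. Over the 7 genes the median log2 fold change was -0.93, against -0.01 over all tested genes, and 51.5% of all tested genes were below 0. All 7 were below -0.5, as were 18.7% of all tested genes, and Selp, Madcam1 and Selplg were below -1, as were 7.12%. None of the 7 passed the study's thresholds, an absolute log2 fold change over 1 with an adjusted p below 0.05, in the edgeR quasi-likelihood fit with p-values adjusted by Benjamini-Hochberg over all tested genes. The edgeR background was 0.0892% of tested genes called lower and 0% called higher. At an unadjusted p under 0.05, Selp and Icam1 were lower, against 9.12% of all tested genes, and 0 of the 7 were higher, against 3.4%. With DESeq2, Selp was called lower, against a background of 1.73%, and 0 of the 7 were called higher, against 0.279%.

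**Figure D1:**
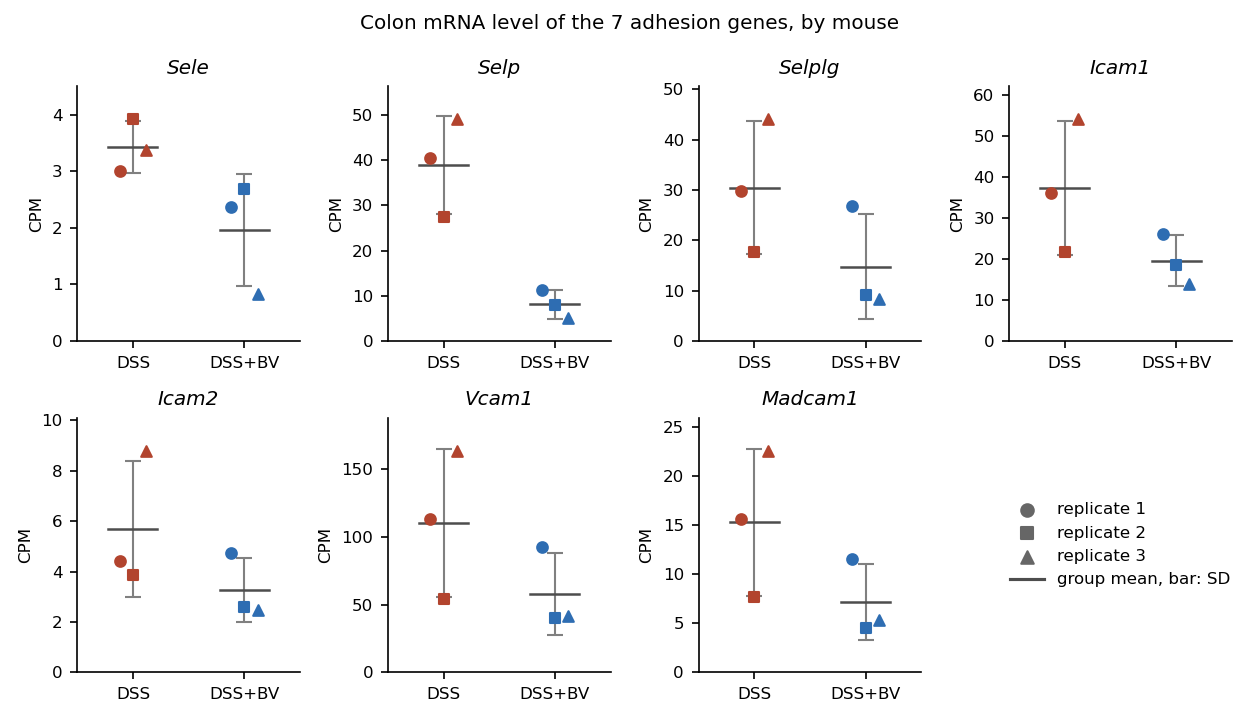
Level of each gene in CPM (vertical axis, from 0, its own scale in each panel) in the DSS group (red) and the DSS+BV group (blue). Points are single mice with the marker giving the replicate number, lines are group means and bars the SD. The groups are apart for Selp and Sele, and in the other 5 genes DSS+BV 1 lies above DSS 2.

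Selp measured 40.4, 27.5 and 49.0 CPM across DSS mice 1 to 3, against 11.3, 7.90 and 4.99 CPM across DSS+BV mice 1 to 3. The lowest DSS mouse was thus above the highest DSS+BV mouse, a separation that 11.3% of all tested genes showed in the lower direction and that only Selp and Sele showed among the 7. None of the 7 had the opposite separation, which 6.37% of all tested genes showed. The log2 fold change was -2.27 (standard error 0.36, edgeR adjusted p = 0.134) and -2.25 with DESeq2 (standard error 0.38, adjusted p = 9.93e-07). By unadjusted p it ranked 52nd of the 14579 genes. Without 1 library in turn, the log2 fold change of Selp ran from -2.58 to -2.01, with edgeR adjusted p-values between 0.0988 and 0.720. Without DSS 2 and DSS+BV 1 it was -2.77, and Selp was called (edgeR adjusted p = 0.0259). These were its lowest DSS and its highest DSS+BV library, so leaving them out widens the difference and is no further support.

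Sele, the scarcest of the 7, rested on 50, 63 and 58 counts across DSS mice 1 to 3, against 36, 42 and 13 counts across DSS+BV mice 1 to 3. These were 2.99, 3.92 and 3.38 CPM against 2.37, 2.68 and 0.822 CPM. The groups did not overlap, but only DSS+BV 3 stood well below the rest. The 95% Poisson intervals, which cover counting error only, were 2.22 to 3.95 CPM in DSS 1 and 1.93 to 3.62 CPM in DSS+BV 2, so these neighbours could not be told apart at this depth. The log2 fold change was -0.81 (standard error 0.46, edgeR adjusted p = 0.513), and -0.44 without DSS+BV 3.

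Selp was also lower in relation to every other vessel gene of the set, a description made after its values were seen. For each Icam1 count there were 1.121, 1.274 and 0.908 Selp counts across DSS mice 1 to 3, against 0.434, 0.425 and 0.357 across DSS+BV mice 1 to 3. The ratio of Selp to Vcam1 lay between 0.2996 and 0.507 in the DSS group and between 0.121 and 0.198 in the DSS+BV group. The ratio of Selp to Sele was between 7.02 and 14.5 in DSS mice and between 2.95 and 6.08 in DSS+BV mice. The ratios to Icam2 and Madcam1 did not overlap between the groups either. All these ratios share Selp, whose own groups did not overlap, so they are not separate results. Such ratios do not depend on the scaling between libraries.

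Since Selp is also made by the platelet lineage, 10 platelet markers were read beside it. Their summed level was between 26.8 and 46.0 CPM in the DSS group and between 16.0 and 23.1 CPM in the DSS+BV group. Only 4 of the 10 passed the filter on low counts. Pf4, a platelet chemokine that macrophages can also express, had a log2 fold change of -1.23 (edgeR adjusted p = 0.334). Itga2b, the platelet integrin subunit, had one of -1.12, and Ppbp, another platelet chemokine, measured 0.60, 3.48 and 1.63 CPM across DSS mice 1 to 3, against 0, 0.255 and 0.190 CPM across DSS+BV mice 1 to 3. Ppbp had a log2 fold change of -3.60 (edgeR adjusted p = 0.299) and was the 1 platelet marker called lower by DESeq2 (adjusted p = 0.026). Gp1bb had a log2 fold change of 1.02 with overlapping groups. Pf4 weighed heavily in the platelet sum, with a DSS mean of 23.9 of 33.7 CPM. In DSS+BV 3, Gp1bb made up 11.4 of 23.1 CPM. Gp1ba, Gp5, Gp6, Gp9, Treml1 and Tubb1 had at most 13 counts in any library. The part of platelets in the level of Selp was not tested.

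Vcam1, the ligand of integrin alpha4 beta1, which had the highest mean level per exon length of the set in both groups, measured 113, 54.1 and 164 CPM across DSS mice 1 to 3, against 92.7, 39.9 and 41.3 CPM across DSS+BV mice 1 to 3. DSS 2 was low and DSS+BV 1 high, and the groups overlapped. The log2 fold change was -0.93 (standard error 0.49, edgeR adjusted p = 0.483), and it was -0.53 without DSS 3 and -1.43 without DSS+BV 1. It is expressed by stromal cells as well as by endothelium. The summed level of 8 fibroblast markers was between 3938 and 4205 CPM in the DSS group and between 1443 and 2102 CPM in the DSS+BV group. Collagen weighed heavily in this sum, with a DSS mean of 1862 CPM for Col3a1 alone. All 8 markers were below 0 in log2 fold change, and 4 were lower without overlap, against 11.3% of all tested genes. The part of fibroblasts in the level of Vcam1 was not tested.

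Madcam1, the gut addressin, measured 15.6, 7.65 and 22.5 CPM across DSS mice 1 to 3, against 11.5, 4.52 and 5.37 CPM across DSS+BV mice 1 to 3. It had the order of Vcam1 among the DSS mice, and the groups overlapped through DSS+BV 1. The log2 fold change was -1.09 (standard error 0.51, edgeR adjusted p = 0.436), and it was -0.70 without DSS 3 and -1.61 without DSS+BV 1. Vcam1 and Madcam1 kept a narrow ratio, a description made after the values were seen. There were 7.08 to 7.26 Vcam1 counts for each Madcam1 count in the DSS group and 7.68 to 8.83 in the DSS+BV group. The ratio was thus higher in DSS+BV without overlap, by a log2 difference of 0.18. Nkx2-3, a homeobox factor needed for Madcam1 in gut vessels, had a log2 fold change of -0.48 (edgeR adjusted p = 0.460).

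Madcam1 also marks the high endothelial venules of lymphoid tissue. Of the other venule markers, Glycam1, a sulfated mucin of these venules, measured 2.51, 0 and 3.55 CPM across DSS mice 1 to 3, against 5.08, 0 and 0 CPM across DSS+BV mice 1 to 3. Fut7, which makes the fucosylated selectin ligands, had at most 4 counts in any library. Libraries with Glycam1 were the 3 with high B cell markers. The remaining venule markers were mixed in DSS+BV 1 against DSS 2. Nkx2-3 measured 12.1 against 13.6 CPM and the chemokine receptor Ackr1 3.63 against 3.54 CPM. Gcnt1 measured 56.9 against 30.1 CPM and Chst4 81.0 against 74.5 CPM. The part of lymphoid tissue in the level of Madcam1 was not tested.

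Icam1 measured 36.0, 21.6 and 54.0 CPM across DSS mice 1 to 3, against 26.1, 18.6 and 13.97 CPM across DSS+BV mice 1 to 3. The overlap came from DSS+BV 1 against DSS 2. The log2 fold change was -0.93 (standard error 0.38, edgeR adjusted p = 0.394), and -0.56 without DSS 3.

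Icam2, which resting endothelium expresses, measured 4.43, 3.85 and 8.79 CPM across DSS mice 1 to 3, against 4.75, 2.61 and 2.47 CPM across DSS+BV mice 1 to 3. DSS 3 stood above all other libraries, and without it the log2 fold change was -0.34, against -0.80 with it (standard error 0.44, edgeR adjusted p = 0.501).

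Selplg, on the leukocyte side, measured 29.7, 17.7 and 44.0 CPM across DSS mice 1 to 3, against 26.7, 9.11 and 8.35 CPM across DSS+BV mice 1 to 3. It followed the leukocyte markers in setting DSS 2 below DSS+BV 1. The log2 fold change was -1.05 (standard error 0.54, edgeR adjusted p = 0.476), and it was -0.69 without DSS 3 and -1.79 without DSS+BV 1.

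Selplg, Icam1, Icam2, Vcam1 and Madcam1 shared the feature that DSS+BV 1 was above DSS 2, while DSS+BV 2 and DSS+BV 3 were below every DSS library. With DSS+BV 1 set aside the groups of all 7 genes were therefore apart, which restates that order and is no further result (21.3% of all tested genes were apart in this way). The same holds for the 6 genes other than Icam2 with DSS 2 set aside (18.8% of all tested genes) and for all 7 with both set aside (29%). Without both DSS 2 and DSS+BV 1, Selp, Selplg, Vcam1 and Madcam1 were called lower by edgeR, against 2.27% of genes called lower and 1.92% called higher in that fit. The log2 fold changes were then -2.06 for Selplg (adjusted p = 0.0331), -1.75 for Vcam1 (adjusted p = 0.0324) and -1.92 for Madcam1 (adjusted p = 0.0449). Icam1 had one of -1.45 and missed the threshold (edgeR adjusted p = 0.0627). These 2 libraries were named from an earlier analysis of the same data, and this fit rests on 2 mice a group. For the genes called, DSS 2 was the lowest DSS library and DSS+BV 1 the highest DSS+BV library. Leaving both out therefore widens the difference by itself, and these calls are no further support.

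**Figure D2:**
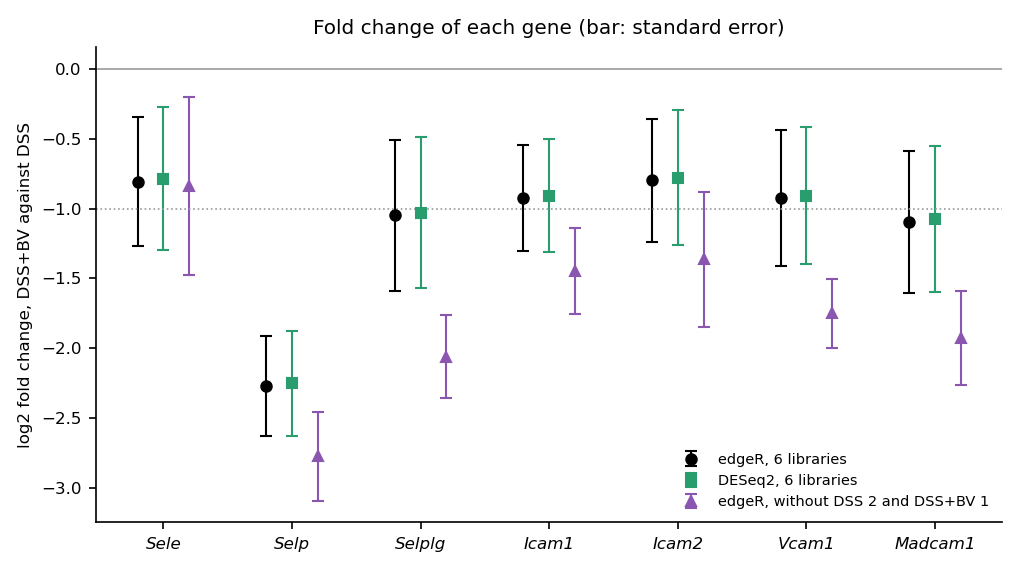
Log2 fold change of DSS+BV against DSS (vertical axis) for each gene, with bars for the standard error, by edgeR over 6 libraries, DESeq2 over 6 libraries, and edgeR without DSS 2 and DSS+BV 1. The dotted line is at -1. Selp lies between -2.77 and -2.25, below the other 6 genes in each of the 3 fits.

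Per kilobase of annotated exon, the order in the DSS group was Vcam1 at 12.4 ± 6.18, Madcam1 at 10.6 ± 5.19, Selp at 8.83 ± 2.46, Icam1 at 8.53 ± 3.72, Selplg at 7.13 ± 3.09, Icam2 at 2.99 ± 1.42 and Sele at 1.18 ± 0.159 CPM per kb (SD, n = 3). Between mice the ranges of the first 5 overlapped, as did those of Selplg and Icam2. Within a library, Vcam1 exceeded both Madcam1 and Selplg, Selplg exceeded Icam2, and Icam2 exceeded Sele per kilobase in all 6 libraries. In the DSS+BV group Vcam1 (6.54 ± 3.39), Madcam1 (4.98 ± 2.67), Icam1 (4.49 ± 1.41) and Selplg (3.45 ± 2.43) came before Selp at 1.83 ± 0.720 CPM per kb. Selp then lay next to Icam2, at 1.72 ± 0.671 CPM per kb, within the spread, and Sele was at 0.672 ± 0.342 CPM per kb.

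To read the vessel genes against the amount of endothelial RNA, each was divided by the summed level of 18 blood endothelium markers in the same library. Cells other than endothelium can also express some of these genes, as described for Selp and Vcam1. The ratio is therefore not a level per endothelial cell. How much of the Icam1 and Icam2 level came from endothelium was not tested. The sum itself was between 688 and 911 CPM in the DSS group and between 463 and 636 CPM in the DSS+BV group. All 18 markers were below 0 in log2 fold change, with a median of -0.65, and 0 were called by edgeR. At an unadjusted p under 0.05, 9 of the 18 were lower, against 9.12% of all tested genes, and 0 were higher, against 3.4%. With DESeq2, 1 of the 18 was called, Egfl7. Selp made up 5.85%, 3.99% and 5.38% of this sum across DSS mice 1 to 3, against 1.78%, 1.67% and 1.08% across DSS+BV mice 1 to 3. The groups did not overlap, and the log2 difference was -1.76 (exact permutation test, two-sided, p = 0.1, the smallest that 3 against 3 can give, and 0.35 after adjustment over 7 ratios). The difference remained between -2.06 and -1.54 in all alternatives tried for this ratio.

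The other vessel genes overlapped between the groups on this scale. Vcam1 made up 16.4%, 7.87% and 17.97% of the endothelial sum across DSS mice 1 to 3, against 14.6%, 8.45% and 8.92% across DSS+BV mice 1 to 3. The log2 differences were -0.54 for Madcam1, -0.43 for Sele, -0.36 for Vcam1, -0.33 for Icam1 and -0.22 for Icam2, with exact permutation p-values between 0.3 and 0.6. Selplg was divided by the sum of the 7 pan-leukocyte markers, which include Ptprc, the gene of CD45. It made up 5.11%, 6.04% and 5.12% of that sum across DSS mice 1 to 3, against 3.85%, 4.87% and 4.78% across DSS+BV mice 1 to 3. The log2 difference was -0.27, without overlap (exact permutation p = 0.1, and 0.35 after adjustment over 7 ratios). Against Ptprc alone it was -0.46 (exact permutation p = 0.1). Against the geometric mean of the same markers it was -0.21 (exact permutation p = 0.6), and without DSS 2 and DSS+BV 1 it was -0.084.

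**Figure D3:**
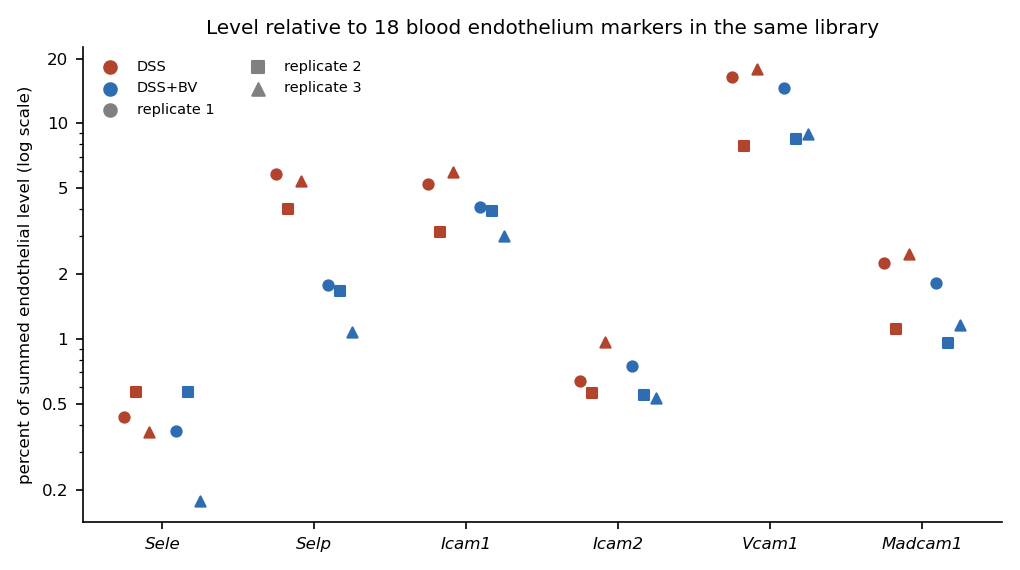
Level of the 6 vessel genes as a percent of the summed level of 18 blood endothelium markers in the same library (vertical log axis). Each point is 1 mouse, red for DSS and blue for DSS+BV. Selp is between 3.99% and 5.85% in DSS mice and between 1.08% and 1.78% in DSS+BV mice, and the groups overlap for the other 5 genes.

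Across the 6 libraries, Selplg, Icam1, Icam2, Vcam1 and Madcam1 varied closely together, Selp less so and Sele least. Vcam1 and Madcam1 were the most alike (Pearson r of log2 CPM 0.993), followed by Selplg with Madcam1 (0.976) and with Vcam1 (0.974). Selp had correlations between 0.776, with Sele, and 0.878, with Icam1. Sele had correlations of 0.473 with Vcam1 and 0.472 with Madcam1. These values describe 6 libraries that share the group difference and the tissue makeup, so they carry no p.

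Among 14081 genes with a mean of at least 1 CPM, those most like each gene over the 6 libraries were read from the same correlations. For Selplg the first was Csf1r, the receptor that macrophages need for survival, followed by Def6 and AB124611, with r between 0.997 and 0.998. Vcam1 was most like Mfng, a modifier of Notch receptors, Cyp4f18 and Batf, a lymphocyte transcription factor. Madcam1 was most like Bmp4, Tmem108 and again Mfng. Those most like Icam1 were Klra2, Msc and Treml4. For Icam2 they were Axl, a receptor kinase, Serpina3f and Cmtm3. Selp was most like Nxpe5, Acss3 and Rgma, and Sele like Emsy, Terf2ip and Serpinf1. For the genes named, r lay between 0.978 and 0.998, the highest of 14081 values for each gene over 6 libraries.

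**Figure D4:**
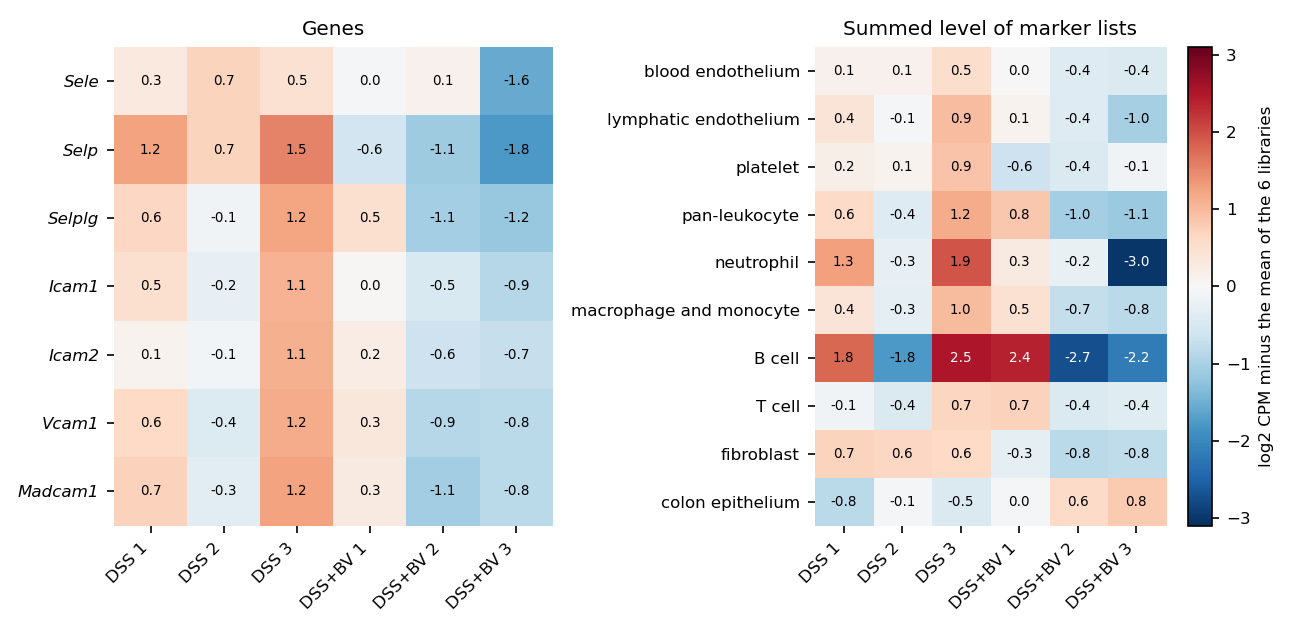
Log2 level of the 7 genes (left) and of the summed marker lists (right) in each library, minus the mean over the 6 libraries, red above and blue below. Selplg, Icam1, Icam2, Vcam1 and Madcam1 are higher in DSS+BV 1 than in DSS 2, as are the pan-leukocyte, macrophage, B cell and T cell sums, while Selp is higher in every DSS library. Ly6g makes up 303 of the 330 CPM of the neutrophil sum in DSS+BV 1 and 76.1 of the 227 CPM in DSS 2. The other 9 neutrophil markers are lower in DSS+BV 1 than in DSS 2.

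On the leukocyte side, 13 counter-receptors of the set were measured, and 0 were called by either tool. At an unadjusted p under 0.05 edgeR gave 2 lower and 1 higher, near the 9.12% and 3.4% of all tested genes. The median log2 fold change was -0.52. Itgam, the alpha chain of Mac-1 that binds ICAM-1, measured 73.2, 53.8 and 95.2 CPM across DSS mice 1 to 3, against 48.2, 22.9 and 18.5 CPM across DSS+BV mice 1 to 3, without overlap (log2 fold change -1.31, edgeR adjusted p = 0.329). Itgb1, the beta chain of the VCAM-1 receptor and of many matrix receptors, had a log2 fold change of -0.36, also without overlap. Over all tested genes, 11.3% were lower without overlap. Cd44, a hyaluronan receptor that can bear E-selectin ligands and that epithelium also expresses, measured 55.8, 57.8 and 76.1 CPM across DSS mice 1 to 3, against 69.0, 119 and 147 CPM across DSS+BV mice 1 to 3, with a log2 fold change of 0.82 (edgeR adjusted p = 0.358). Itgad, another beta2 partner, had one of 1.46 at levels of at most 2.68 CPM.

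Of 13 genes for making selectin ligands, 12 were tested and 0 were called by either tool. By edgeR at an unadjusted p under 0.05, 1 was lower and 0 higher, near the 9.12% and 3.4% of all tested genes. The median log2 fold change was -0.35. The lower gene was Tpst1, a tyrosine sulfotransferase of the kind that prepares PSGL-1 for P-selectin. It measured 19.6, 20.3 and 30.2 CPM across DSS mice 1 to 3, against 15.04, 11.4 and 9.99 CPM across DSS+BV mice 1 to 3, without overlap (log2 fold change -0.94, edgeR adjusted p = 0.298). Its paralogue Tpst2 had one of -0.35, the sialyltransferase St3gal4 -0.70 and the sulfotransferase Chst4 -0.31, all with overlapping groups.

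Of 17 genes for endothelial junctions and passage through the wall, 0 were called by either tool. By edgeR at an unadjusted p under 0.05, 4 were lower and 0 higher, against 9.12% and 3.4% of all tested genes. The median log2 fold change was -0.24, and 5 genes were above 0. The 4 were Cdh5, the cadherin of endothelial junctions, at -0.71, Jam3, a junctional adhesion molecule, at -0.89, Plvap, which forms the diaphragms of fenestrae, at -0.58, and Ackr1, a chemokine receptor of venules, at -1.03, with edgeR adjusted p-values between 0.316 and 0.382. Ackr1 measured 6.05, 3.54 and 8.04 CPM across DSS mice 1 to 3, against 3.63, 2.99 and 2.02 CPM across DSS+BV mice 1 to 3, where DSS 2 and DSS+BV 1 overlapped.

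Of 20 genes for the inducing cytokines, their receptors and NF-kB, 17 were tested and all 17 were below 0, with a median log2 fold change of -0.39. None was called by either tool. By edgeR at an unadjusted p under 0.05, 4 were lower and 0 higher, against 9.12% and 3.4% of all tested genes. Il1r1, the signalling receptor of interleukin-1, measured 80.8, 105 and 97.2 CPM across DSS mice 1 to 3, against 70.0, 64.5 and 64.4 CPM across DSS+BV mice 1 to 3 (log2 fold change -0.51, edgeR adjusted p = 0.3001). Il1a had a log2 fold change of -1.31, Il1b one of -1.59 and Tnf one of -1.03. Il1r1, Tnf, Il1b and Nfkbia, the NF-kB inhibitor, were the 4 genes whose groups did not overlap. Over all tested genes, 11.3% were lower in this way. The log2 fold change of Nfkbia was -0.59. The list ended at -0.07 for the NF-kB subunit Nfkb1. Nfkbia and Nfkb1 were named after their values were seen. Il4 and Il13, which can induce Vcam1 and Selp, had at most 1 count in any library, and Ifng at most 4.

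Among the relatives of the set, Icam4 and Icam5 did not pass the filter, with at most 10 counts in any library. Alcam, Bcam and Mcam had log2 fold changes between -0.65 for Bcam and -0.32 for Alcam. Neither tool called any of these 3, and 0 of them had an unadjusted p under 0.05 by edgeR.

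**Figure D5:**
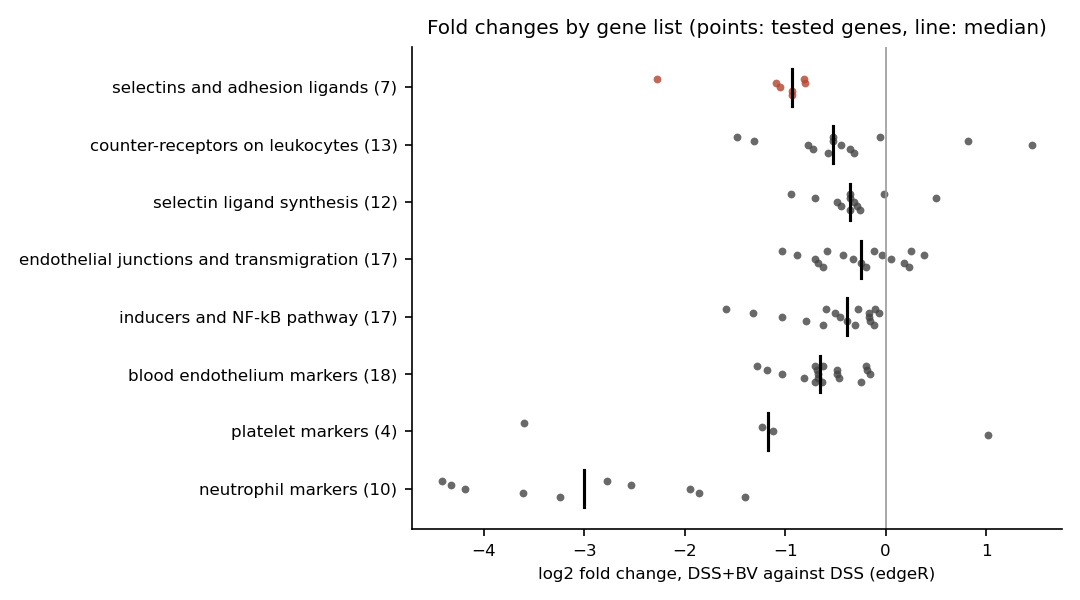
Log2 fold change of DSS+BV against DSS by edgeR (horizontal axis) for the tested genes of each list, 1 point a gene, with a line at the list's median and the number of tested genes in parentheses. The selectins and adhesion ligands have a median of -0.93, the neutrophil markers one of -3.004 and the other lists shown medians between -1.17 and -0.24.

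The cells that these molecules recruit were read from the marker lists. Of 10 neutrophil markers, 6 were called lower by edgeR and 9 by DESeq2, against backgrounds of 0.0892% and 1.73%. Their median log2 fold change was -3.004. Of the 10, 9 were lower without overlap between the groups, against 11.3% of all tested genes. Those 9 summed to 178, 151 and 197 CPM across DSS mice 1 to 3, against 27.8, 18.8 and 14.6 CPM across DSS+BV mice 1 to 3, and all 9 were lower in DSS+BV 1 than in DSS 2. The tenth, Ly6g, singled out after its values were seen, measured 485, 76.1 and 854 CPM across DSS mice 1 to 3, against 303, 215 and 19.1 CPM across DSS+BV mice 1 to 3, with overlap. The macrophage and monocyte markers had a median of -0.86, and those of lymphatic endothelium one of -0.88. The T cell markers had a median of -0.12, smooth muscle -0.17 and colon epithelium 0.45. The part of each cell type in the levels of the 7 genes was not tested.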

How the data were processed

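Colon RNA of 3 DSS and 3 DSS+BV mice was sequenced, and the labels give each library's group. The authors deposited expected counts per gene, not scaled between libraries. The submitters' processing notes name HISAT2 2.1.0, Bowtie2 2.2.5, RSEM 1.2.8 and GRCm38.p6. For the 7 genes all expected counts were whole numbers.

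Expected counts were rounded, filtered with filterByExpr (minimum count 10, minimum total 15), scaled with TMM and fitted in R 4.3.3 by edgeR 4.0.16 (quasi-likelihood, DSS+BV against DSS), with p-values adjusted over 14579 genes. The study used DESeq2, which served as an alternative (version 1.42.0), beside other scalings and filters, a replicate block and omitted libraries. Code was tested on simulated counts. The biological coefficient of variation was 32.1%. Mice of 1 group differed beyond sampling noise (chi-square per degree of freedom 43.7 to 125). Exon lengths and coordinates came from GENCODE M21 (GRCm38). Figures were drawn with matplotlib 3.10.9.

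Genes and lists were chosen with earlier results of these data known. Named genes are the 7, up to 4 per list with the smallest p, the 3 most alike in profile, and markers chosen after their values were seen. One gene of the lists is not reported here.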

Additional observations from a re-analysis of the deposited data

How the results depend on the processing

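The 7 log2 fold changes stayed below 0 under all 13 alternatives each. By edgeR, 13 genes of the whole table were called lower and 0 higher. With DESeq2 the counts were 280 and 45, and Selp was then called (-2.25). Without DSS 2 and DSS+BV 1 they were 333 and 282, and Selp (-2.77), Selplg (-2.06), Vcam1 (-1.75) and Madcam1 (-1.92) were called. That fit leaves out the lowest DSS and the highest DSS+BV library of these genes, so their calls are no further support. Without 1 library in turn, 0 to 3 genes were called lower (3 without DSS+BV 1, 1 without DSS 2, 0 without each of the others). In the same fits 0 to 4 were called higher (4 without DSS+BV 1). The causes were not tested. With other scalings or filters 11 to 13 genes were called lower and 0 higher, and none of the 7 among them. With 1 library left out, the difference relative to the endothelial sum ran from -0.38 to 0.0092 for Icam2, reversed without DSS 3, and from -0.81 to 0.028 for Sele, reversed without DSS+BV 3.

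With the replicate number as a block, edgeR called 0 genes lower and 0 higher, and Selp was at -2.29 (adjusted p = 0.263). Deviations of same-numbered mice had correlations of 0.27, 0.25 and -0.30, and DSS 2 correlated best with DSS+BV 3 (0.484). The labels do not say whether the numbers pair the mice, and correlations from so few mice cannot settle it. Depth limits Sele most, with 13 counts in DSS+BV 3.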
